A study of Mus musculus with 8 samples.

Results

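The 10 genes described here were grouped under the lectin pathway of complement and the terminal pathway that builds the membrane attack complex. They are Fcna, Fcnb, Colec12 and Masp1 on the lectin side, C6, C7 and C8g among the terminal components, and Cd59a, Clu and Vtn among the inhibitors of the complex. They were chosen by symbol from a table of 55421 genes, and each symbol matched 1 identifier. The table came from RNA sequencing of tibiae and femurs of 8 male wild-type C57BL/6 mice. Of these, 4 were injected into the peritoneum with saline vehicle and 4 with a single dose of doxorubicin at 10 mg/kg, a chemotherapy drug that damages DNA, at an age of 15 weeks. Bones were collected 30 days later, their ends were cut off, the marrow was spun out, and the 4 bones of a mouse gave 1 library. The series uses the drug as a model of senescence after chemotherapy, and its title ties complement to osteoclast precursors and bone loss, so the comparison asks whether complement transcripts differ between treated and control bone.

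In the lectin pathway, soluble proteins recognise sugars and acetylated groups on microbes and on dying cells. Serine proteases bound to them (the MASPs) start the cleavage that leads to C3. Ficolins and soluble collectins are such recognition proteins. After C5 is cleaved, C6, C7, C8 and C9 add to C5b in turn and form a pore in the target membrane. CD59, clusterin and vitronectin keep that pore from forming on the body's own cells. Most of these proteins circulate in plasma and come from the liver, while ficolin B, ficolin A, CD59 and clusterin are also made by cells of marrow, bone and vessel walls.

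The libraries held between 23699525 and 35747083 counts, so 1 CPM (count per 1000000 counts, scaled by TMM) stood for between 21.4 and 39.4 counts. Markers of bone cells were present, with osteoblast genes summing to between 5650 and 18500 CPM and osteocyte genes to between 344 and 985 CPM. Marrow cells remained in the spun bones: neutrophil genes summed to between 10700 and 23600 CPM and erythroid genes to between 10800 and 27200 CPM. Skeletal muscle genes summed to between 3460 and 28200 CPM, with vehicle 3 the lowest and doxorubicin 1 the highest. These 2 libraries also stood at the ends of the first principal component, which held 34.3% of the variance, so the differences below are also given without them for the genes where that moved the value by more than 1.5 times. In bulk bone, fewer cells of a type and less RNA per cell cannot be told apart.

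No member differed between the groups past the threshold. All 10 genes passed the filter on low counts, and 0 of 10 reached an adjusted p under 0.05 in edgeR's quasi-likelihood test over 17035 genes, where 0% of all genes did. At an unadjusted p under 0.05 the count was also 0 of 10, against 5.36% of all tested genes, and DESeq2, which called 0.17% of all genes at an adjusted p under 0.05, and limma-voom called 0 of 10 as well. The groups overlapped for each of the 10 genes, whereas 3.59% of all tested genes had groups that did not overlap. The log2 fold change (doxorubicin over vehicle) was positive for 6 of the 10 and negative for 4, beside 57.2% positive among all tested genes. It had a median of 0.087 over the members and of 0.036 over all tested genes.

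**Figure D1:**
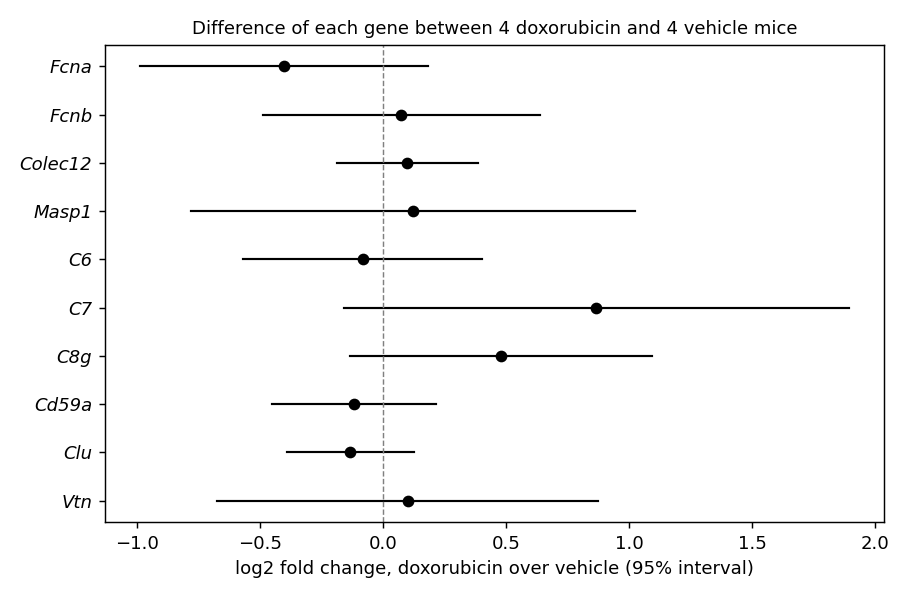
The log2 fold change of each gene, doxorubicin over vehicle (x axis), is drawn as a point with its 95% interval from edgeR as a line, over 4 mice against 4. Every interval crosses 0, the widest is that of C7 (−0.16 to 1.89) and the narrowest that of Clu (−0.39 to 0.13).

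The 10 genes covered a wide range of levels. Counts were divided by the exon length of the gene in GENCODE M21 and scaled so that a library sums to 1000000. On this scale the mean level over 8 libraries was 113 ± 39.5 for the ficolin gene Fcnb and 46.7 ± 20.6 for Fcna (SD, n = 8). Clu stood at 33.6 ± 6.56, Cd59a at 32.0 ± 7.52 and Colec12 at 21.7 ± 3.64 (SD, n = 8). These 5 lay above between 83.1% and 97.4% of the tested genes. The other 5 lay far lower, above between 4.49% and 22.0% of the tested genes. On the same scale C6 stood at 1.40 ± 0.416, Vtn at 1.29 ± 0.414, C7 at 1.00 ± 0.543, C8g at 0.641 ± 0.164 and Masp1 at 0.307 ± 0.112 (SD, n = 8). Fcnb exceeded Fcna in 8 of 8 libraries, and Colec12 exceeded C6 in 8 of 8. The neighbours C6 and Vtn did not differ beyond their spread, since C6 was the higher in 4 of 8 libraries. Clu exceeded Cd59a, Vtn exceeded C7 and C7 exceeded C8g in 6 of 8 each, and Fcna exceeded Clu in 7 of 8. Exon lengths count all annotated isoforms, so the level of a gene with a long, rarely used exon is understated. For Masp1, which encodes MASP-1, MASP-3 and a short form from 1 gene, the length was 9833 bases and the isoforms are not separated.

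**Figure D2:**
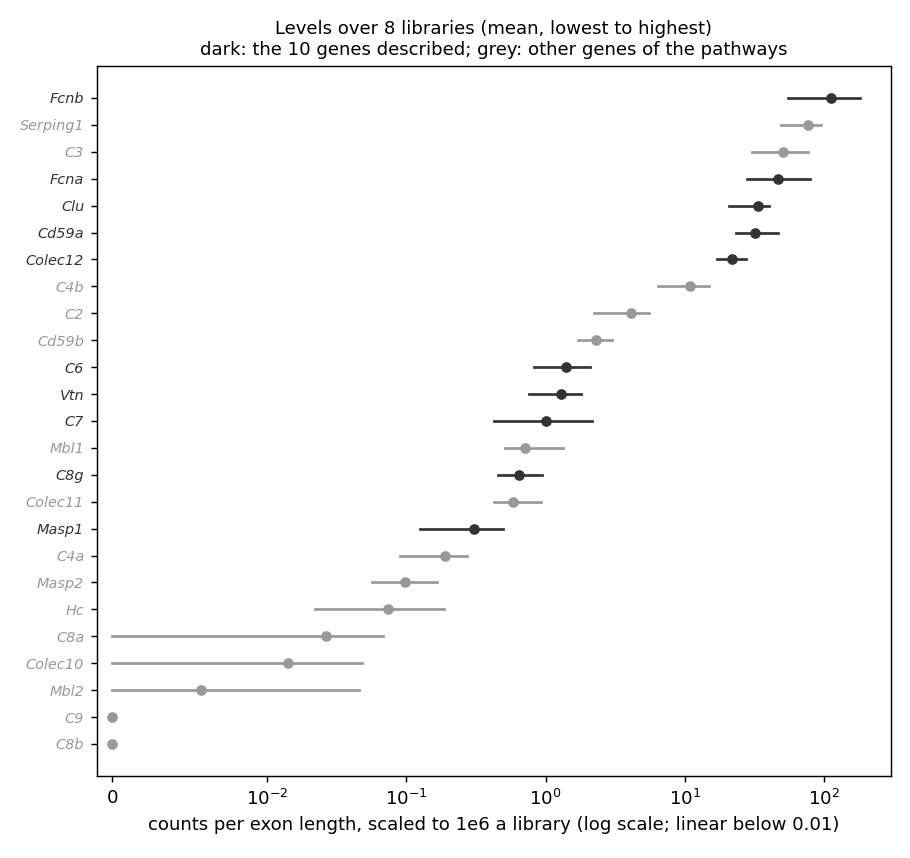
Points give the mean over 8 libraries of counts per exon length, scaled to 1000000 a library (x axis, log scale, linear below 0.01), and lines run from the lowest to the highest library. Fcnb heads the order at 113, Masp1 ends the 10 genes at 0.307, and C8b and C9 stand at 0.

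Fcnb encodes ficolin B, a lectin of neutrophils and their marrow precursors (ENSMUSG00000026835.15, GRCm38 chr2:28076378-28084885, minus strand). Fcna encodes ficolin A, made by tissue macrophages and found in plasma (ENSMUSG00000026938.10, chr2:25624666-25628030, minus strand). No stretch of 30 bases, compared in the sense direction only, was shared between a ficolin transcript and the transcripts of any other gene. Exons of Fcna overlap those of Fcnaos, a gene on the opposite strand with 5 counts over the 8 libraries. The ficolin pair itself can be counted apart. The promoters of both, 250 bases before to 50 after the start of the transcript in RefSeq (GRCm38.p6, minus strand), are shown because these related genes took different patterns across the libraries. Capitals mark GAGGAA on either strand, the core that the myeloid factor PU.1 binds, which is found in 28.3% of 32851 promoters of the same length.
Fcna, chr2:25627925-25628224: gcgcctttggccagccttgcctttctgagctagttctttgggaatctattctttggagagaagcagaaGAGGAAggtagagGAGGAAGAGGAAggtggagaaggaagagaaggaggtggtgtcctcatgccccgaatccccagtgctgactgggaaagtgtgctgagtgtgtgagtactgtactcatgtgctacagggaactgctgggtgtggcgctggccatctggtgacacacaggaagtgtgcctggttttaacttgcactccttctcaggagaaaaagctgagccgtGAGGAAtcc
Fcnb, chr2:28084829-28085128: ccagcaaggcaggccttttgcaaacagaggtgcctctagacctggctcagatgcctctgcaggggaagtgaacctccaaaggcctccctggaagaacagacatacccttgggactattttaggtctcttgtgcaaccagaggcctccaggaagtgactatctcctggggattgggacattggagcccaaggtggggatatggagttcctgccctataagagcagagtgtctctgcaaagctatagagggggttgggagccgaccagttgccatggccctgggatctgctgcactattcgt
The Fcna window held 4 such matches and the Fcnb window none, and neither held any of the other motifs searched. A match is a description of letters only.

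Fcna measured 25.6, 27.0, 53.7 and 52.9 CPM in vehicle 1 to 4, and 26.9, 38.5, 28.7 and 26.6 CPM in doxorubicin 1 to 4. Vehicle 3 and vehicle 4 stood at about the same high level, doxorubicin 2 came next, and the other 5 libraries lay between 25.6 and 28.7 CPM, so the groups overlapped. Vehicle bones had a mean of 39.8 ± 15.6 CPM and treated bones one of 30.2 ± 5.61 CPM (SD, n = 4 each). This gave a log2 difference of −0.40 ± 0.26 (SE, 95% interval −0.99 to 0.18), with an adjusted p of 0.856 in edgeR. The difference was −0.17 without vehicle 3 and doxorubicin 1. With any 1 library left out it lay between −0.25 (without vehicle 4) and −0.57 (without doxorubicin 2), and without vehicle 1 it was −0.56, with an unadjusted p of 0.0461 in edgeR.

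Macrophage markers had log2 fold changes of the same sign as Fcna. All 12 of 12 macrophage genes lay below 0, with a median log2 fold change of −0.45, and 6 of them had an unadjusted p under 0.05 on the lower side (3.23% of all tested genes did), though 0 passed the adjusted threshold. Their summed level ran from 713 to 1180 CPM in vehicle and from 599 to 876 CPM in doxorubicin, and none of the 12 was without counts. The 3 highest libraries of the sum were vehicle 3 (1180 CPM), vehicle 4 (992 CPM) and doxorubicin 2 (876 CPM), the same 3 as for Fcna. Taken singly, Vcam1, Siglec1, Mrc1, Hmox1 and Vsig4 had these 3 highest libraries. For Adgre1, Mertk, Cd5l, Cd163, Spic, Timd4 and C1qa, doxorubicin 2 was not among the 3 highest. The 3 highest libraries of the stromal gene Cxcl12 were the same as for Fcna (vehicle 3: 2470 CPM, doxorubicin 2: 2020 CPM, vehicle 4: 1830 CPM). Vcam1 was the largest part of the macrophage sum (vehicle 3: 524 CPM, doxorubicin 2: 436 CPM, vehicle 4: 385 CPM). Relative to this sum Fcna stood at 3.59%, 3.75%, 4.54% and 5.33% in vehicle 1 to 4, and at 4.48%, 4.39%, 4.45% and 4.44% in doxorubicin 1 to 4, so the groups overlapped there as well. A fit with the mean log level of the macrophage list as a term was chosen after the data were seen. In it the log2 difference of Fcna changed sign to 0.37 ± 0.15 (SE). Its unadjusted p was 0.0421 and its adjusted p 0.749 in edgeR. That term gives each gene of the list equal weight, which the sum does not. Since all 12 of its genes lay below 0 in doxorubicin, the term is partly tied to the group. The fit therefore cannot fully separate the term from the treatment. Within the list, Cd163, a haemoglobin scavenger receptor, had a log2 difference of −1.18 ± 0.24 (SE) and Timd4, which binds phosphatidylserine on dying cells, one of −2.06 ± 0.38 (SE), with adjusted p of 0.703 and 0.698 in edgeR. Adgre1 (F4/80) was at −0.29 ± 0.13 (SE). Other marrow lists lay below 0 as well: 8 of 8 megakaryocyte genes, with a median log2 fold change of −0.49 and 5 at an unadjusted p under 0.05, and 10 of 10 erythroid genes, with a median of −0.37. Vehicle 3 and vehicle 4 were the highest libraries for erythroid genes (27200 and 27000 CPM), as for Fcna. Of 7 monocyte genes 6 lay above 0, with a median of 0.17. What part the amount of RNA from these cells has in the values of Fcna was not tested beyond these measurements.

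Fcnb measured 67.5, 85.8, 94.7 and 76.7 CPM in vehicle 1 to 4, and 51.9, 62.8, 117 and 111 CPM in doxorubicin 1 to 4. The doxorubicin libraries lay on both sides of the whole vehicle range, with doxorubicin 1 and 2 below every vehicle library and doxorubicin 3 and 4 above. The means were 81.2 ± 11.7 CPM and 85.5 ± 33.0 CPM (SD, n = 4 each), and the log2 difference was 0.07 ± 0.25 (SE; 95% interval −0.49 to 0.64). It was 0.34 without vehicle 3 and doxorubicin 1, and lay between −0.13 (without doxorubicin 3) and 0.23 (without doxorubicin 1) with any 1 library left out. Neutrophil markers as a sum were split in a like way at the lower end only. Their 12 genes summed to 13300, 18200, 23600 and 13500 CPM in vehicle 1 to 4 and to 10700, 10900, 22200 and 18600 CPM in doxorubicin 1 to 4. Doxorubicin 1 and 2 were the lowest of the 8 libraries for both Fcnb and that list, but vehicle 3 had the highest sum. Doxorubicin 3 and 4 lay above every vehicle library for Elane, Mpo, Prtn3, Ctsg, Ltf, Ngp and Cxcr2. They did not for Camp, S100a8, S100a9, Mmp8 and Retnlg. Of the 12 genes 7 lay above 0 and 5 below, with a median log2 fold change of 0.034 and none past the threshold. Relative to the neutrophil sum Fcnb stood at between 0.401% and 0.567% in vehicle and between 0.486% and 0.594% in doxorubicin libraries.

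The ratio of the ficolins also varied within groups. Fcna over Fcnb in CPM was 0.378, 0.315, 0.567 and 0.690 in vehicle 1 to 4 and 0.519, 0.613, 0.245 and 0.241 in doxorubicin 1 to 4. Doxorubicin 3 and 4 had the lowest ratios of the 8 libraries, and the other 2 doxorubicin libraries lay inside the vehicle range. The within-group SD of log2 CPM was 0.45 for Fcna and 0.44 for Fcnb, larger than in 93.8% and 92.9% of the 1000 tested genes nearest to each in level, whose median was 0.20 and 0.19.

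**Figure D3:**
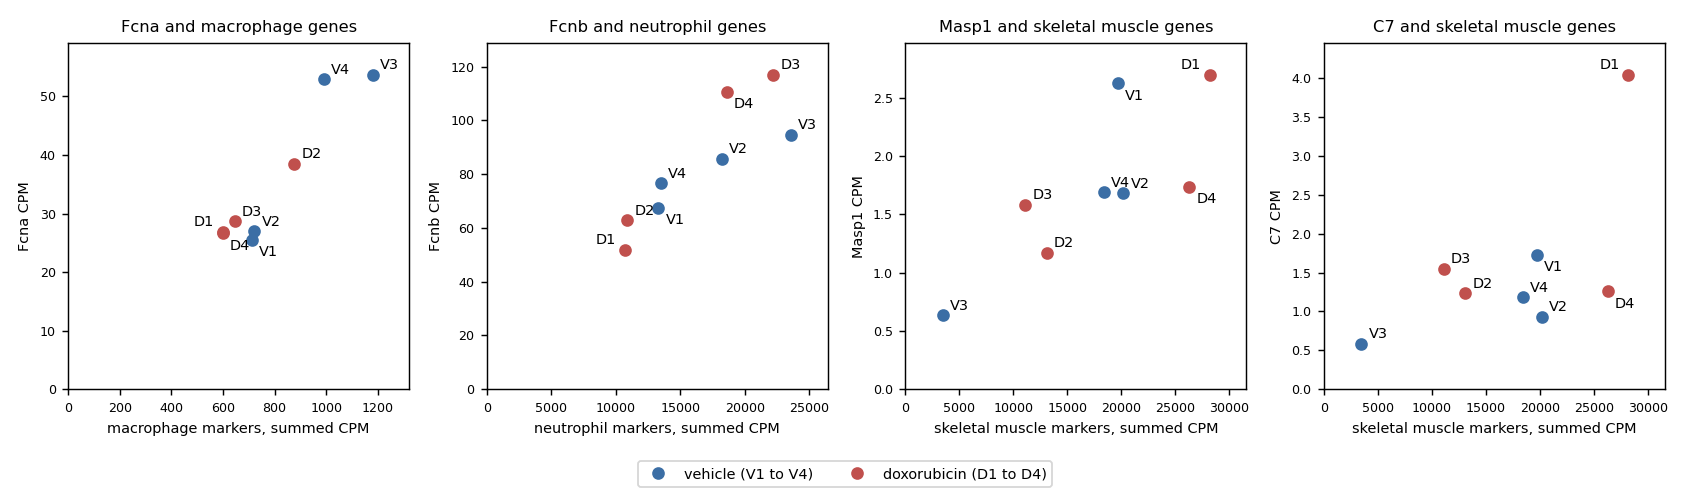
Each point is 1 library (V1 to V4 vehicle, D1 to D4 doxorubicin), with the summed CPM of a marker list on the x axis and the CPM of 1 gene on the y axis. Fcna is highest in V3, V4 and D2, which are also highest for the macrophage sum, though not for each gene in it. Fcnb is lowest in D1 and D2, which are also lowest for the neutrophil sum. Masp1 and C7 are lowest in V3 and highest in D1, the ends of the range of muscle markers. D4 comes next to D1 for muscle markers, but lies inside the vehicle range for both genes.

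Colec12 encodes a scavenger receptor of vessel and stromal cells with a collectin-like lectin domain, rather than a soluble collectin (ENSMUSG00000036103.9, chr18:9707595-9882644, plus strand). It measured 95.6, 102, 122 and 89.9 CPM in vehicle 1 to 4 and 112, 125, 96.6 and 105 CPM in doxorubicin 1 to 4. The groups lay over nearly the same range. Its log2 difference of 0.10 ± 0.13 (SE; 95% interval −0.19 to 0.39) had an interval that in fold runs from 0.878 to 1.31. With 1 library left out the difference lay between 0.0012 (without doxorubicin 2) and 0.16 (without vehicle 3), and it was 0.015 without vehicle 4 and 0.18 without both vehicle 3 and doxorubicin 1. Its highest library was 1.39 times its lowest, the smallest such ratio among the 10 genes. Of its 30-base stretches 7.05% also occur in transcripts of other genes, so a small part of its reads may be shared.

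Masp1, the serine protease gene of the pathway (ENSMUSG00000022887.9, chr16:23449417-23520815, minus strand), rested on 25 to 70 counts a library. It measured 2.62, 1.68, 0.635 and 1.69 CPM in vehicle 1 to 4 and 2.70, 1.17, 1.58 and 1.74 CPM in doxorubicin 1 to 4. Vehicle 3 stood far below the rest, while vehicle 1 and doxorubicin 1 were about equally high. For Masp1 the log2 difference was 0.12 ± 0.40 (SE; 95% interval −0.78 to 1.02), and it changed sign to −0.43 without vehicle 3 and doxorubicin 1. Skeletal muscle markers were lowest in vehicle 3 (3460 CPM, against between 11100 and 28200 CPM in the other 7 libraries) and highest in doxorubicin 1, as Masp1 was. Between these ends the orders differed. Doxorubicin 4 had 26300 CPM of muscle markers and 1.74 CPM of Masp1, while vehicle 1 had 19700 CPM and 2.62 CPM. All 8 muscle genes lay above 0 in doxorubicin, with a median log2 fold change of 0.39 and none past the threshold. With the muscle list as a term, chosen after the data were seen, the log2 difference of Masp1 was −0.14 ± 0.25 (SE).

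Of the 10 other genes of the lectin pathway, 7 were tested, 4 with a positive and 3 with a negative log2 difference, and none passed the threshold (0% of all genes did). C4a had a log2 difference of −0.54 ± 0.29, C4b, the main mouse C4 gene, one of 0.28 ± 0.18 and Serping1, the C1 inhibitor, which also blocks the MASPs, one of 0.21 ± 0.13 (SE), with adjusted p of 0.856 each in edgeR. C4a is listed as a long noncoding RNA in the table and is a near copy of C4b, so its reads may be split between them. The mannose-binding lectins were scarce: Mbl1 stood at between 0.450 and 1.07 CPM, and Mbl2 had 1 count in 8 libraries. Colec11 stood at between 0.375 and 0.762 CPM. The protease gene Masp2 had 41 counts in all, between 3 and 8 a library, and the collectin gene Colec10 had 8 counts, and neither was tested.

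Among terminal components, the bones held transcripts of C6, C7 and C8g but few or none of the rest. C6 (ENSMUSG00000022181.16, chr15:4727175-4814967, plus strand) and C7 (ENSMUSG00000079105.4, chr15:4988762-5063740, minus strand) encode the proteins that join C5b in turn, and their genes lie 173.8 kb apart on chromosome 15 with 1 protein-coding gene between. C8g (ENSMUSG00000015083.11, chr2:25498651-25501719, minus strand) encodes the gamma chain of C8, a lipocalin that is not part of the pore itself. Hc, the gene of C5, had 58 counts in all, between 2 and 17 a library, and C8a had 13. C8b and C9 had 0 counts in every library, which allows a level of up to 0.0132 CPM over the 8 libraries (3 counts, for counting error only). None of these 4 was tested. A complete set of membrane attack transcripts was therefore not detectable at this depth.

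C6 measured 2.70, 2.19, 3.76 and 2.60 CPM in vehicle 1 to 4 and 2.04, 3.21, 2.83 and 2.56 CPM in doxorubicin 1 to 4. Vehicle 3 was the highest and doxorubicin 1 the lowest of the 8 libraries. Between the groups C6 differed by −0.08 ± 0.22 on the log2 scale (SE; 95% interval −0.57 to 0.40), and the difference changed sign to 0.059 without vehicle 3, to 0.0082 without doxorubicin 1 and to 0.20 without both.

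C7 measured 1.72, 0.933, 0.584 and 1.18 CPM in vehicle 1 to 4, and 4.05, 1.23, 1.55 and 1.26 CPM in doxorubicin 1 to 4. Doxorubicin 1 stood far above the other 7 libraries, and the other 3 doxorubicin libraries lay inside the vehicle range. The counts behind these values ran from 20 to 93. Means were 1.11 ± 0.479 and 2.02 ± 1.36 CPM (SD, n = 4 each), and the log2 difference was 0.87 ± 0.46 (SE; 95% interval −0.16 to 1.89), with an adjusted p of 0.856 in edgeR. The difference was 0.28 without doxorubicin 1 and 0.07 without both vehicle 3 and doxorubicin 1. Without vehicle 1 it was 1.17, with an unadjusted p of 0.0409 in edgeR, the upper end of its range with any 1 library left out. C7 had the widest spread of the 10 genes, with the highest library 6.93 times the lowest, and in these 2 libraries it lay on the other side of its mean from C6: C7 over C6 in CPM was 0.155 in vehicle 3 and 1.98 in doxorubicin 1, and between 0.383 and 0.639 in the other 6 libraries. Doxorubicin 1 was also the highest library for skeletal muscle markers (28200 CPM). Doxorubicin 4 came next for these markers (26300 CPM), but its C7 level (1.26 CPM) lay inside the vehicle range. Of the 8 chondrocyte genes doxorubicin 1 was highest for Prg4 (81.5 CPM, against between 7.24 and 44.3 CPM elsewhere) and, by 457 to 454 CPM over vehicle 1, for Col11a1. The genes Acan, Col9a1, Matn3 and Chad were highest in doxorubicin 3. Of the stromal and fibroblast genes, Dcn, Lum, Col3a1, Dpt (20.0 CPM), Cd34 and Gsn were also highest in doxorubicin 1. Cxcl12 (1180 CPM) and Lepr (136 CPM) were lowest there, Pdgfra was highest in doxorubicin 2 and Pi16 in doxorubicin 4. The part of these tissues in the level of C7 was not tested.

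The C7 promoter is shown as that of the member with the widest spread, and capitals mark TATAAA, the TATA box, and CAGCTG, an E-box of the kind that the muscle factor MyoD binds, each on either strand.
C7, GRCm38.p6 chr15:5063724-5064023, minus strand: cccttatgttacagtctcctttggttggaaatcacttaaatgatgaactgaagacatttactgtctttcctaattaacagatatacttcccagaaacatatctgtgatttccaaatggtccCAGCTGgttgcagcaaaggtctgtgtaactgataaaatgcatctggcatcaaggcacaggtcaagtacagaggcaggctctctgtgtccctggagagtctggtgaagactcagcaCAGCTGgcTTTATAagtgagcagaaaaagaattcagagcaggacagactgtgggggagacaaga
TATAAA is present in 13.6% and CAGCTG in 16.3% of promoters of this length. The window held 1 match of TATAAA and 2 of CAGCTG, starting 6, 14 and 129 bases before the start of the transcript. Also searched, on both strands and with no match here, were the GC box (GGGCGG, in 35.7% of promoters), the core of PU.1 sites, a C/EBP site (TTGCGCAA, in 0.183%), a RUNX site (TGTGGTT, in 5.27%), an AP-1 site (TGAGTCA, in 5.20%) and the heat shock element (GAANNTTC, in 7.86%). Of the 10 genes 7 had a promoter in the RefSeq table. The motifs were picked with the promoters in view.

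C8g rested on 10 to 22 counts a library. It measured 0.450, 0.467, 0.381 and 0.506 CPM in vehicle 1 to 4 and 0.609, 0.661, 0.428 and 0.825 CPM in doxorubicin 1 to 4, so doxorubicin 1, 2 and 4 lay above every vehicle library and doxorubicin 3 inside their range. On the log2 scale the groups differed by 0.48 ± 0.27 (SE; 95% interval −0.13 to 1.09), with an adjusted p of 0.856 in edgeR. It lay between 0.33 and 0.61 with any 1 library left out. Its within-group SD of log2 CPM, 0.27, was larger than in only 7.9% of the 1000 genes nearest in level. These log2 CPM include a prior count of 2, which narrows the spread of genes with counts this low. The 1000 genes compared carry the same prior count, and their median within-group SD was 0.47. The DESeq2 Wald test gave C8g a log2 difference of 0.47 ± 0.40 (SE), with an unadjusted p of 0.234.

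**Figure D4:**
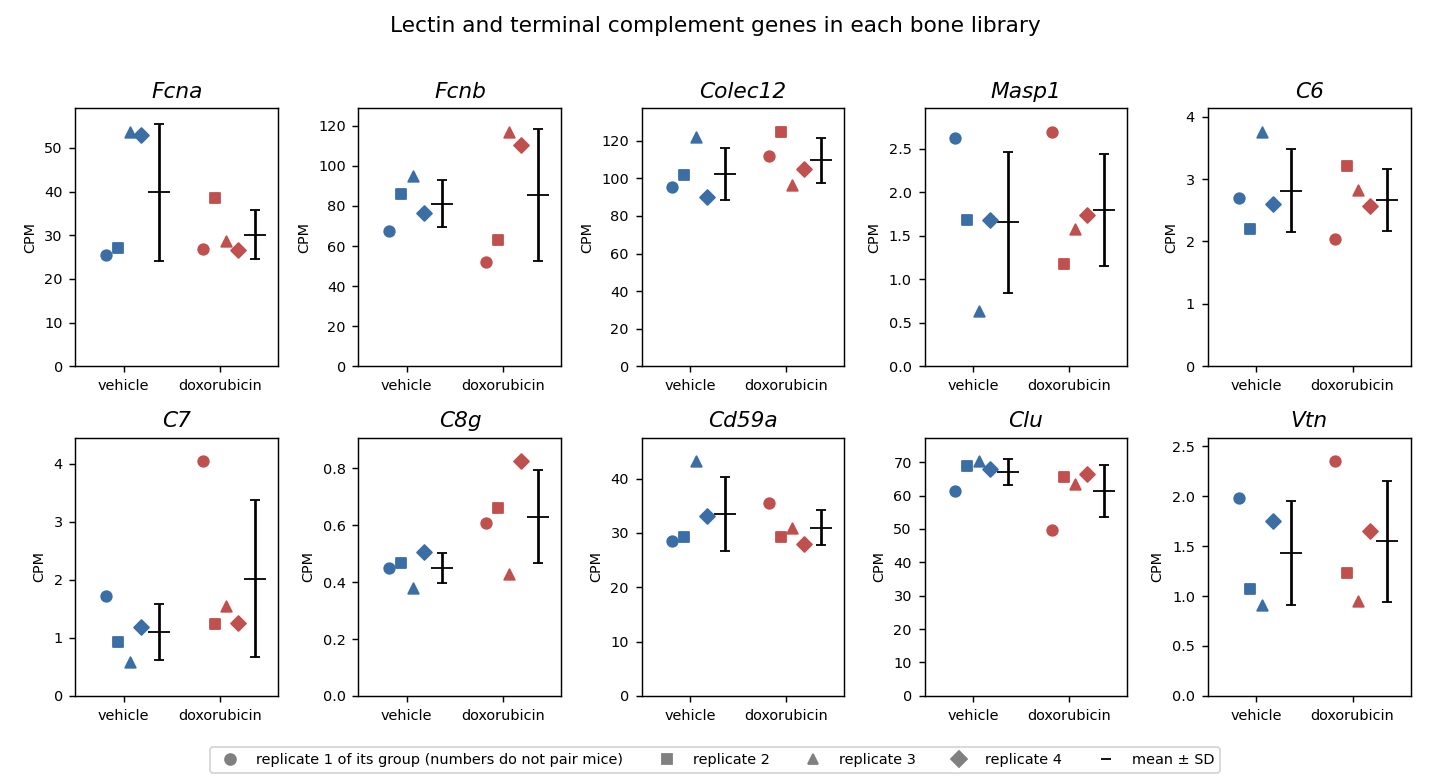
CPM of each gene in the 4 vehicle (blue) and 4 doxorubicin (red) libraries, with the mean and SD of each group as a black bar. The y axes start at 0 and differ between panels; C7 reaches 4.05 CPM in doxorubicin 1 while its other 7 libraries lie at or under 1.72 CPM.

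Of the inhibitors of the membrane attack complex, Cd59a and Clu stood far above its components per exon length, while Vtn stood at the level of C6. Cd59a encodes CD59, which sits in the cell membrane on a lipid anchor and blocks the insertion of C9 (ENSMUSG00000032679.12, chr2:104095801-104115354, plus strand). It measured 28.4, 29.3, 43.2 and 33.2 CPM in vehicle 1 to 4 and 35.5, 29.3, 31.0 and 28.1 CPM in doxorubicin 1 to 4. Vehicle 3 was the highest, and the doxorubicin values all lay within or just below the vehicle range. The log2 difference was −0.12 ± 0.15 (SE; 95% interval −0.45 to 0.22), −0.0097 without vehicle 3, −0.04 without vehicle 3 and doxorubicin 1, and −0.21 without doxorubicin 1. Cd59b, the second mouse CD59 gene, lies 4.6 kb away and held between 3.98% and 7.58% of the counts of the pair in a library. Its log2 difference was −0.04 ± 0.23 (SE). Of the 30-base stretches of Cd59a 9.61% occur in transcripts of other genes, most of them in Cd59b, so part of these reads may be split between the pair.

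Clu encodes clusterin, a secreted chaperone that binds C5b-7 and later complexes (ENSMUSG00000022037.15, chr14:65968483-65981547, plus strand). It measured 61.5, 69.0, 70.3 and 68.0 CPM in vehicle 1 to 4 and 49.7, 65.5, 63.4 and 66.4 CPM in doxorubicin 1 to 4. Doxorubicin 1 stood below the other 7 libraries, which lay between 61.5 and 70.3 CPM. The log2 difference was −0.13 ± 0.12 (SE; 95% interval −0.39 to 0.13), which in fold runs from 0.763 to 1.09. This was the tightest bound among the 10 genes. Without doxorubicin 1 the difference was −0.06, and without both vehicle 3 and doxorubicin 1 it was −0.02.

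Vtn encodes vitronectin, a plasma and matrix protein that holds C5b-7 in solution and also binds integrins (ENSMUSG00000017344.4, chr11:78499091-78502324, plus strand). It rested on 23 to 54 counts a library, and measured 1.99, 1.07, 0.914 and 1.75 CPM in vehicle 1 to 4 and 2.35, 1.23, 0.955 and 1.65 CPM in doxorubicin 1 to 4. Both groups covered nearly the same range, with doxorubicin 1 the highest and vehicle 3 the lowest. For Vtn the log2 difference was 0.10 ± 0.35 (SE; 95% interval −0.67 to 0.87), and it changed sign to −0.35 without vehicle 3 and doxorubicin 1. Vtn and several other members are textbook products of the liver. Of the hepatocyte markers, Alb (albumin) stood at or under 0.254 CPM in every library, 1 of 8 markers was tested, and the list summed to between 0.140 and 8.23 CPM, most of it Apoa1 in doxorubicin 1 (6.57 CPM) and Serpina1a in doxorubicin 3 (7.97 CPM).

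Several members had their extremes in vehicle 3 or doxorubicin 1. C7, Masp1 and Vtn were each lowest in vehicle 3 and highest in doxorubicin 1. C6, Cd59a, Clu and Fcna were each highest in vehicle 3, and C6 and Clu were lowest in doxorubicin 1. C8g was highest in doxorubicin 4 and lowest in vehicle 3, and Fcnb was highest in doxorubicin 3 and lowest in doxorubicin 1. Only Colec12 had neither extreme in these libraries, being highest in doxorubicin 2 and lowest in vehicle 4. By root mean square difference of centred log2 CPM profiles over the 8 libraries (smaller is nearer), the member nearest to C7 was Masp1 (0.412), and Masp1 and Vtn were nearest to each other (0.363). Among 14783 genes with a mean of at least 1 CPM, those nearest to C7 were Myoc (0.282) and Lnx1 (0.295), those nearest to Fcna were Chp2 (0.102) and Abcg3 (0.153), and those nearest to Fcnb were Glt1d1 (0.0673) and Ncf4 (0.0823). Nearest to Masp1 were Gm8116 (0.159) and Zfp385b (0.169), to Vtn Mtfp1 (0.141) and Tenm3 (0.155), and to C6 Lca5 (0.0960) and Pcdhb9 (0.104). The profiles of Cd59a, Clu and Colec12 departed least from their own means (root mean square 0.197, 0.149 and 0.159), though Cd59a lay 0.435 above its mean in vehicle 3. Their nearest genes were Pde8b (0.0704) and Cdc42ep3 (0.0713), Fyb (0.0687) and Abraxas1 (0.0702), and Zfp267 (0.0560) and Wdpcp (0.0572). These are descriptions over 8 libraries that share their depth and tissue mix.

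**Figure D5:**
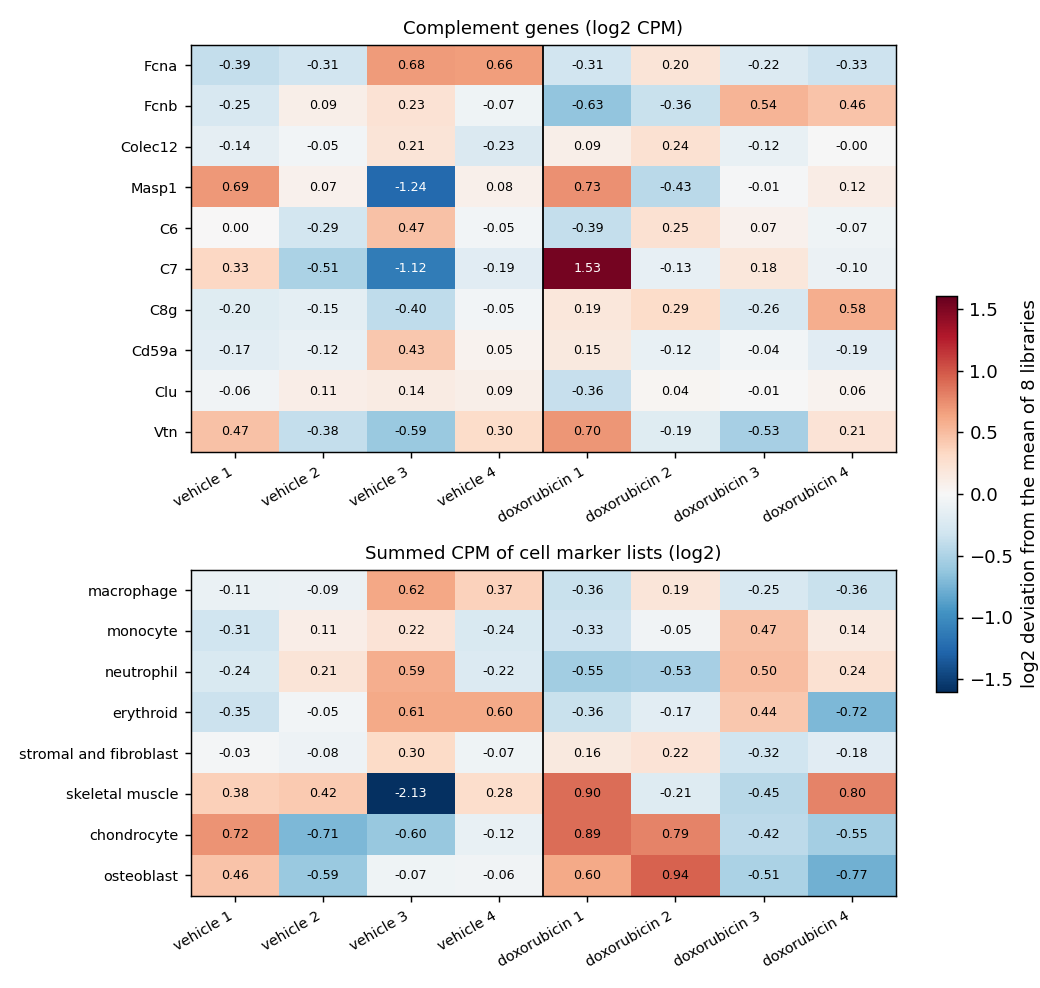
Each cell gives the log2 deviation of a library (column) from the mean of the 8 libraries, for the CPM of the 10 genes (top) and for the summed CPM of 8 cell marker lists (bottom), with vehicle left of the black line. Vehicle 3 is low for Masp1 (−1.24), C7 (−1.12) and muscle markers (−2.13), and doxorubicin 1 is high for C7 (1.53).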

How the data were processed

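Poly-A RNA of marrow-depleted bones was sequenced from 8 mice with a stranded kit and adaptors carrying unique molecular identifiers, per the labels' protocols. The authors deposited expected counts per gene, all whole numbers, and the submitters' processing notes name STAR 2.5.3a and RSEM 1.3.0. They give a human build, GRCh38, although 55240 of 55421 identifiers in the table matched mouse genes of GENCODE M21, with or without their version. Not given in the sources used here are the annotation, the strand setting, any rounding and the use of the molecular identifiers. Reads are not taken as independent molecules, so floors cover counting error only.

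Columns were matched to mice by the labels' descriptions. Among the 28 library pairs the lowest chi-square was 28.8 times its degrees of freedom, so none agreed within sampling noise. Genes passed edgeR's filterByExpr (minimum count 10, minimum total 15), were scaled by TMM and tested with edgeR 4.0.16 (R 4.3.3) by the robust quasi-likelihood test, two-sided, with Benjamini-Hochberg adjustment over 17035 genes and a threshold of 0.05. SE and 95% intervals come from the quasi-likelihood F statistic. The code was tested on simulated data. Alternatives were other scaling, filters, DESeq2 1.42.0, limma-voom (limma 3.58.1), a replicate term, covariates and left-out libraries.

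Positions and exon lengths come from GENCODE M21 (GRCm38), which matched 54673 of 55421 identifiers with their version, and promoters from RefSeq (GRCm38.p6). All members are named; of the other pathway genes, the 3 with the smallest p per list and those not tested are named, and for each member at or above 1 CPM the 2 genes with the nearest profile. Further genes, Mbl1, Colec11, marker genes and those of the untested lists, were named after their values were seen. The members and lists were chosen with earlier results of these data known. Protein sequences were not used here.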

Additional observations from a re-analysis of the deposited data

Results flagged for a closer look

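C7 in doxorubicin 1 was the single value that stood apart within its group: at 4.045 CPM against 1.23, 1.55 and 1.26 CPM in the other 3 doxorubicin libraries, its gap to the nearest of them was 0.888 of the group's whole range. Over 10 genes and 2 groups, chance marks about 1 group in 20 in this way. The same library was the highest of the 8 for skeletal muscle markers (28200 CPM) and for the chondrocyte gene Prg4 (81.5 CPM), while the chondrocyte genes Acan, Col9a1, Matn3 and Chad were highest in doxorubicin 3. Doxorubicin 4 had 26300 CPM of muscle markers, with C7 at 1.26 CPM. Of the stromal and fibroblast genes, Dcn, Lum, Col3a1, Dpt, Cd34 and Gsn were highest in doxorubicin 1, while Cxcl12 and Lepr were lowest there. Whether these go together was not tested.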

How the results depend on the processing

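With 4 mice a group, precision was set by the spread between mice, and for C7, Masp1, Vtn and C8g also by fewer than 100 counts a library. Of the members 0 passed the threshold under every alternative run, and over all 199 refits of the 10 log2 differences the adjusted p lay between 0.549 and 1.00. The count over all genes was 0 in edgeR, with 913 genes at an unadjusted p under 0.05, but 1 with no filter on low counts (Cyp2e1) and 29 with DESeq2; with each replicate left out in turn it ran from 0 to 0. Of the 199 values 177 kept their direction and 22 did not, and C7, C8g, Clu and Colec12 kept it in every refit. The cause of the changes of sign was not tested. The log2 difference of C6 became 0.078 with the muscle term, 0.30 with the macrophage term and 0.20 without vehicle 3 and doxorubicin 1, and ran from −0.21 to 0.059 with 1 library left out. That of Vtn became −0.12 with a marrow term, −0.16 with the muscle term, −0.14 with the macrophage term and −0.35 without vehicle 3 and doxorubicin 1, and ran from −0.19 to 0.30 with 1 library left out. Masp1 went to −0.14, −0.63 and −0.43 under the muscle term, the macrophage term and without both libraries, and ran from −0.21 to 0.44 with 1 left out. Fcnb ran from −0.13 to 0.23 with 1 left out. With the macrophage term Cd59a was at 0.13 and Fcna at 0.37. The muscle and macrophage terms and the removal of both libraries were chosen after seeing the data. The macrophage genes all lay below 0 in doxorubicin and the muscle genes all above 0. These terms are thus partly tied to the group, and the fits cannot fully separate them from the treatment.

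Replicate numbers are shared by the groups in the labels, but nothing says that they pair mice. Deviations of same-numbered libraries correlated at 0.342, −0.266, 0.430 and 0.0902 across genes, and 3 of 4 vehicle libraries correlated best with their own number. With the replicate block 0 genes passed the adjusted threshold, 1466 had an unadjusted p under 0.05, and among the members C7 did (log2 difference 0.80, unadjusted p = 0.0246, adjusted p = 0.549 in edgeR).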
